A study of Mus musculus with 13 samples.

Results

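The 10 genes described here encode Kruppel-like factors (Klf2, Klf3, Klf4, Klf5, Klf6, Klf7, Klf9, Klf10, Klf13 and Klf15), and they were taken by symbol from an mRNA table of 35967 mouse genes. Kruppel-like factors are transcription factors whose C-terminal zinc fingers bind GC-rich and CACCC-containing DNA in promoters and enhancers. They differ mainly in their N-terminal parts, through which they recruit coactivators or corepressors. In glomeruli, Klf2 and Klf4 are known as flow-responsive genes of the endothelium. Klf6 and Klf15 are known as regulators of the podocyte, the epithelial cell that carries the slit diaphragm. The study also counts Klf4 among stress and injury factors for which a part in podocytes has been shown. Klf9 and Klf15 are known as genes that glucocorticoids induce in many tissues.

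The samples were glomeruli of wildtype Balb/c mice, each given 2 mg of rabbit IgG into the peritoneum. Only adult males were used in this model. Control mice (n = 5) received preimmune rabbit IgG, and mice with membranous nephropathy (MN) received rabbit IgG against THSD7A, a podocyte surface protein, and were killed on day 1 (n = 4) or day 5 (n = 4). Control mice of both days form 1 group, and the day of each one is not given, so neither MN group had controls of its own day. Glomeruli were collected with magnetic beads that had been perfused into the kidney, RNA was sequenced in bulk, and each library is a separate sample in the labels, taken here as 1 mouse, so p-values measure the spread between these samples.

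Of the 10 genes, only Klf4 passed both thresholds (adjusted p and fold change, given with each result) in any comparison. It rose at day 5 to 1.57 times the control level, and its 4 values at day 1 also lay above every control value. Of the other genes, 8 were tested without a call and Klf5 was too low to test with them. Klf2, Klf6, Klf9, Klf13 and Klf15 varied from mouse to mouse inside each group, and their deviations were positively correlated, which is given as a description. These traits were not theirs alone: Klf4 correlated positively with each of them, and Klf10 varied about as much as Klf13.

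Levels are given in TPM, a share of all transcripts in a library that is corrected for transcript length, so genes can be compared. In the control mice Klf2 had the highest mean level, 330 TPM ± 44.1 (SD, n = 5), above 97.0% of the 14322 genes that were tested. Klf9 with 139 ± 36.0 TPM and Klf4 with 116 ± 6.55 TPM came next and overlapped each other, followed by Klf3 with 97.2 ± 12.9 TPM. Klf13 (76.6 ± 10.4 TPM), Klf6 (75.4 ± 8.44 TPM) and Klf10 (74.0 ± 10.3 TPM) did not differ beyond their spread, and Klf7 stood at 55.0 ± 5.45 TPM. Klf15 had 15.5 ± 7.10 TPM, and Klf5 with 0.177 ± 0.0952 TPM was the lowest. Summed over the 10 genes, a library held between 814 and 1206 TPM. The files hold no read counts, so the depth behind these values is unknown.

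**Figure D1:**
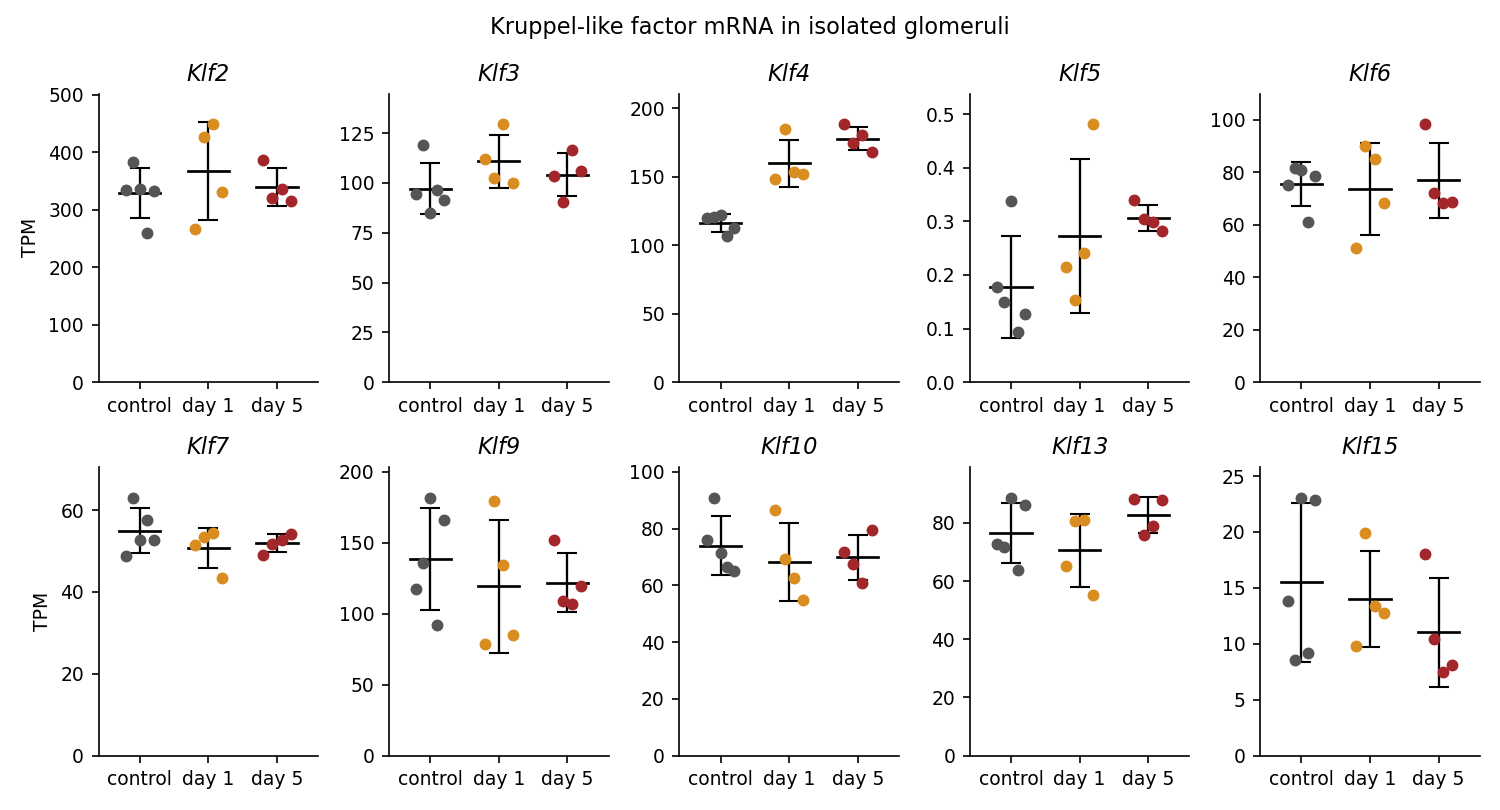
Level of each Kruppel-like factor gene in TPM (vertical axes, each starting at 0) in 5 control, 4 day 1 MN and 4 day 5 MN libraries (horizontal axis). Points are libraries, one mouse each, wide lines are group means and bars are SD. Klf4 is the only panel in which all day 1 and day 5 points lie above all control points, and in the Klf9 and Klf15 panels the points spread widely inside each group.

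The promoters of 8 of the 10 genes were found in the RefSeq table of GRCm38.p6, each as 250 bases before and 50 bases after the start of the gene. Klf4 is shown as the gene that changed, Klf2 as the other flow-responsive factor, and Klf9 and Klf15 as the 2 genes that varied most between mice. Each line reads 5′ to 3′ on the strand of the gene. Capitals mark CACCC (or GGGTG, the same letters on the opposite strand), GGGCGG (or CCGCCC), known as the GC box, and in Klf2 a match to the consensus of MEF2, the factor through which the ERK5 kinase induces Klf2 and Klf4.
Klf4: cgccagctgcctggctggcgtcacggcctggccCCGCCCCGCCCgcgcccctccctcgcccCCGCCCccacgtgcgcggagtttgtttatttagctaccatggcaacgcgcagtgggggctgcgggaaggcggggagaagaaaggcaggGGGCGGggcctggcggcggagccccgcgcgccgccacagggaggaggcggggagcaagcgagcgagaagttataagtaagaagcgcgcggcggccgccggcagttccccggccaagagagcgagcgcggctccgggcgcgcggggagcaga
Klf2: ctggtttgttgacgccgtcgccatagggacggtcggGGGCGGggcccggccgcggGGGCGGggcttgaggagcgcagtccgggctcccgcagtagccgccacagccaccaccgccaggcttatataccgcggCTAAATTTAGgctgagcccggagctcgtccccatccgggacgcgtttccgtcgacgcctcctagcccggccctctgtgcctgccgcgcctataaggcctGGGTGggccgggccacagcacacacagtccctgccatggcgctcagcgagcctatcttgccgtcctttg
Klf9: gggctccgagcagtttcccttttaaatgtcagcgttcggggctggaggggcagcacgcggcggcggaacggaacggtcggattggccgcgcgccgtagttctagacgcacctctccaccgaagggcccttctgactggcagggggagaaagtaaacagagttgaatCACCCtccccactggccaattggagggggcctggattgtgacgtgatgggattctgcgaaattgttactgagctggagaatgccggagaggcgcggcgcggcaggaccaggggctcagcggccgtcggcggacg
Klf15: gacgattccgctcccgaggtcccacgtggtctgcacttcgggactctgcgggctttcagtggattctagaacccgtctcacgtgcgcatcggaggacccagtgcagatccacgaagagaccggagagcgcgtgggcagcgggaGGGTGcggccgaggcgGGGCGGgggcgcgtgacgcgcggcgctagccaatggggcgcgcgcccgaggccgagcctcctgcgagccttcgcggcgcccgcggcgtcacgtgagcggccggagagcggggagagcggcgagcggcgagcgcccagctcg
The Klf4 window is chr4:55532426-55532725 on the minus strand, that of Klf2 is chr8:72318812-72319111, that of Klf9 is chr19:23140976-23141275 and that of Klf15 is chr6:90462326-90462625, the last 3 on the plus strand.

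The Klf4 window held 4 GC boxes, some of which overlap each other, and as many are found in 5.49% of 32851 promoters of the same length. It held no CACCC, which 57.5% of all promoters contain, and Klf6 held none either. The Klf2 window was the only one of the 8 with a match to the MEF2 consensus, which 3.19% of all promoters hold. Klf3 stood out with 5 CACCC matches, reached by 1.02% of promoters, and 6 GC boxes, reached by 1.35%. In its window 1 CACCC and 1 GC box share bases, as also in Klf13. The Klf15 window contained 3 copies of CACGTG, the E-box of clock and Myc factors, which 7.15% of all promoters hold at least once, and Klf4 and Klf6 had 1 each. None of the 8 windows contained AGAACA, a core of the site that the glucocorticoid receptor binds, found in 19.0% of all promoters, nor TGACTCA, the AP-1 site, found in 5.20%. These are matches of letters only.

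Klf4 is an endothelial and epithelial factor that dampens inflammatory gene expression and is one of the factors that reprogram cells to pluripotency. Its gene lies on chromosome 4 at 55527139 to 55532528 of GRCm39, on the minus strand. The 5 control libraries measured 120, 121, 122, 106 and 113 TPM. The 4 day 1 MN libraries measured 149, 185, 153 and 152 TPM, and the 4 day 5 MN libraries 188, 175, 180 and 168 TPM. Every MN library lay above the highest control, and the day 1 and day 5 ranges overlapped. Of the 31-base words in Klf4 transcripts, 5.81% also occur in other genes, among them the predicted gene Gm48923, and none in another of the 10 members, whereas Klf2, Klf6 and Klf15 share no such word with any gene.

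At day 5 the difference from control was 0.65 on the log2 scale (SE 0.08, 95% confidence interval 0.48 to 0.81, fold 1.57), with an adjusted p of 1.92e-04 (limma), and Klf4 was called. It was the only one of the 9 tested Kruppel-like factor genes called at day 5, when 3.21% of all tested genes were called and 10.8% had control and MN values that did not overlap. At day 1 the difference was 0.50 (SE 0.08, interval 0.34 to 0.66, fold 1.41). Its adjusted p of 0.0271 was under 0.05, but its size of 0.498 fell just short of the required 0.5, so that 0 of the 9 genes were called at day 1, with 2 (Klf4 and Klf3) at an unadjusted p under 0.05. Of all tested genes, 12.6% had such a p at day 1, 20.1% at day 5 and 15.5% between the days, and the counts at an unadjusted p given for the lists stand beside these shares. The background was narrow there: 0.0908% of genes were called, 0.133% passed on the adjusted p alone and 4.22% had values that did not overlap. By p value Klf4 ranked 8 of 14322 genes at day 1 and 71 at day 5. Both comparisons share the 5 control libraries.

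The day 1 result was close to both thresholds. With a test on read counts and the same thresholds, the study reported Klf4 among the genes changed at both days. Over 24 alternative settings its log2 difference lay between 0.42 and 0.54 and its adjusted p between 0.0103 and 0.11, under 0.05 in 13 of them. Without the highest day 1 library (185 TPM) the difference was 0.42 with an adjusted p of 0.0347. Without control 5 (0.50, adjusted p 0.0142) or day 1 library 3 (0.53, adjusted p 0.0304) it passed both thresholds. At day 5 the difference lay between 0.60 and 0.68, with an adjusted p of at most 0.00283, in all 24 settings. Between day 5 and day 1 Klf4 differed by 0.15 (interval -0.02 to 0.32, adjusted p 0.402), so a further difference between the days was not shown. In that comparison 0 of the 9 genes were called by limma and 0 had an unadjusted p under 0.05, against 1.81% of all genes called and 11% with values that did not overlap.

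**Figure D2:**
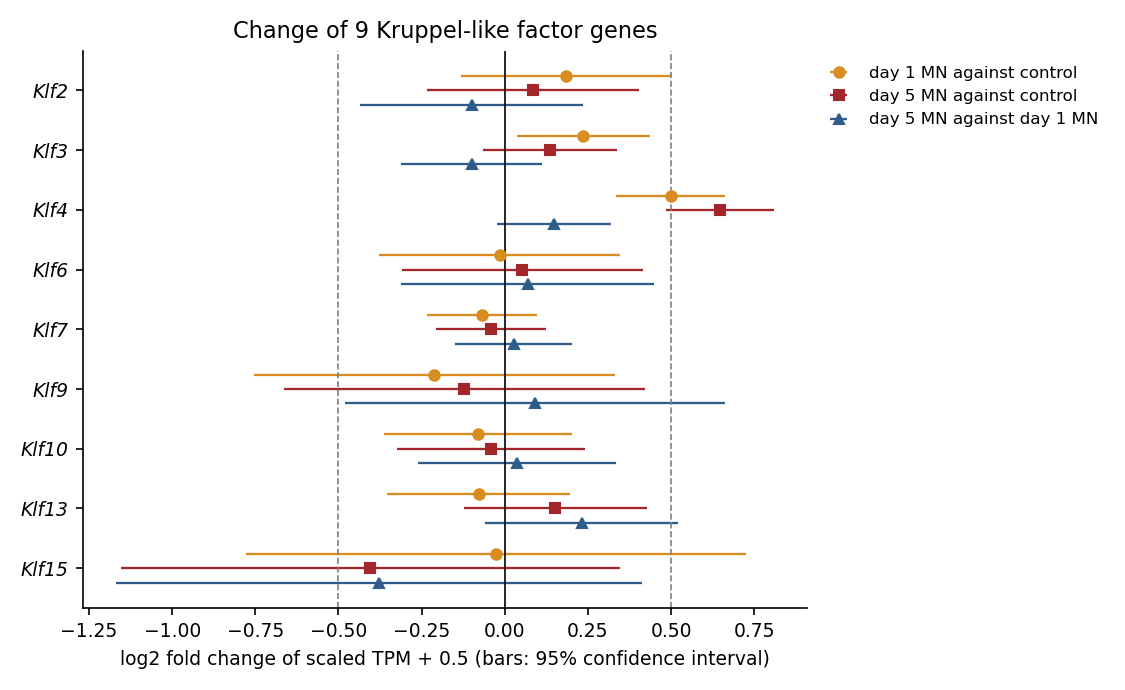
Log2 fold change (horizontal axis) of the 9 tested Kruppel-like factor genes (vertical axis) in 3 comparisons, with 95% confidence intervals from limma as bars. The solid line marks no change and the dashed lines the fold threshold of 0.5 in either direction. The interval of Klf4 at day 5 is 0.48 to 0.81, and the intervals of Klf9 and Klf15 are the widest.

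The bulk RNA cannot tell fewer cells of a type from less RNA per cell. Klf4 is made by several glomerular cells, so its level was set beside marker lists. All 8 endothelial markers were at 1 TPM or more in all libraries, and their summed level, in which Plat alone makes up 4654 of 9883 TPM in control, was 9200 to 11320 TPM in control, 7634 to 11820 at day 1 and 9213 to 11960 at day 5. Gene by gene, 4 of the 8 were higher than control at day 1 and 7 at day 5 (0 and 4 at an unadjusted p under 0.05), with median log2 differences of 0.00 and 0.17, and all 8 were higher at day 5 than at day 1. Emcn, the endothelial sialomucin endomucin, lay above every control at day 5, with 1151 to 1419 TPM in control and 1510 to 1604 TPM at day 5 (0.29, adjusted p 0.0127). Tie1 (0.27, adjusted p 0.0860), Pecam1 (0.24, adjusted p 0.0881) and Cdh5 (0.21, adjusted p 0.147) were next. The part of these markers in the rise of Klf4 was not tested. The 8 podocyte markers summed to 7578 to 10220, 8385 to 10260 and 9139 to 9819 TPM in the same order, and 7 mesangial and contractile markers to 1219 to 1909, 1537 to 1778 and 1677 to 2239 TPM. Of 7 leukocyte markers 3 were at 1 TPM or more everywhere, and the sums were 23.3 to 40.3, 26.04 to 49.3 and 20.3 to 44.3 TPM. The 10 tubule markers were present in every library and moved with the day, with 2347 to 8334 TPM in control, 4138 to 7456 at day 1 and 3070 to 3671 at day 5. In these sums Kap alone held 1945 to 7313 TPM in control. Gene by gene, all 10 were higher than control at day 1 (7 at an unadjusted p under 0.05), with a median log2 difference of 0.71. At day 5, 5 of the 10 were higher than control, with a median of -0.02. From day 1 to day 5 all 10 fell (median -0.77), and 7 did not overlap, beside 11% of all genes. With the tubule marker score as a covariate the Klf4 difference was 0.54 at day 1, with an adjusted p of 0.11, and 0.64 at day 5, with an adjusted p of 3.37e-04. The 5 red blood cell markers summed to 207 to 472 TPM in control, 91.5 to 282 TPM at day 1 and 205 to 473 TPM at day 5, and their part in the result was not tested.

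Over the 13 libraries, the 3 tested genes whose centred log2 values lay nearest to those of Klf4 were Vim, Adgrl4 and N4bp3. Their root mean square difference from Klf4 was 0.129, 0.130 and 0.133, and the root mean square of the centred values of Klf4 itself was 0.302. Vim, the intermediate filament protein vimentin, averaged 645 TPM in control, 880 TPM at day 1 and 1011 TPM at day 5. Adgrl4, an adhesion receptor of endothelial cells, averaged 262, 308 and 362 TPM. Vim and Adgrl4 were called at day 5, with log2 differences of 0.69 and 0.50 and adjusted p values of 3.55e-04 and 0.00143, whereas N4bp3, at 0.43, stayed under the fold threshold. Being picked for their likeness to Klf4, these genes are a description only.

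**Figure D3:**
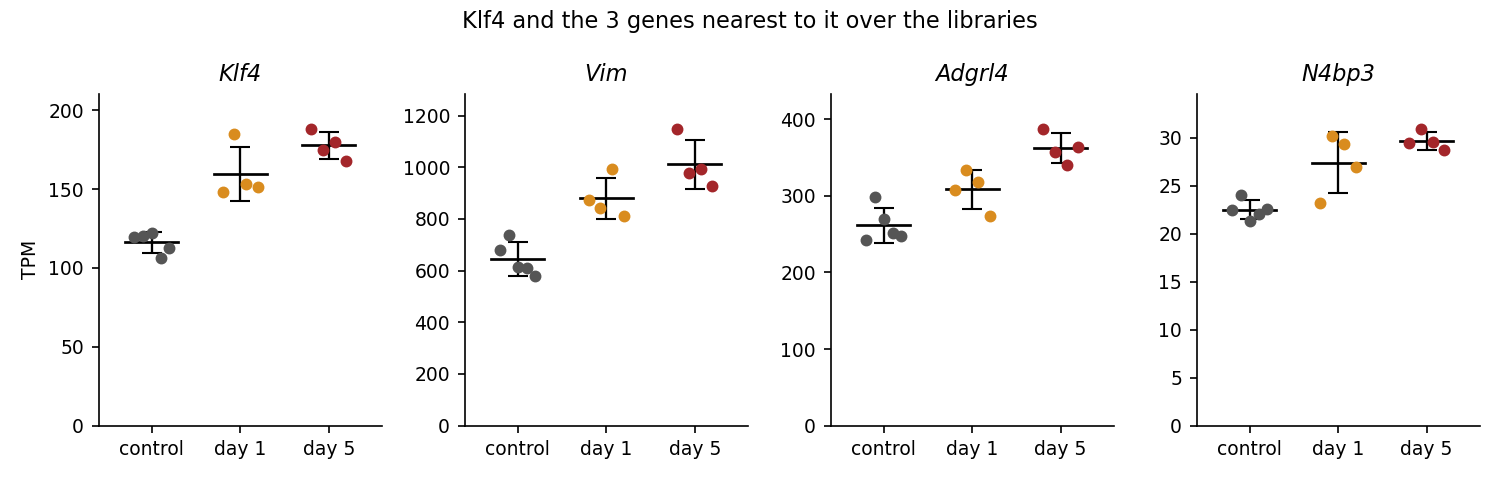
TPM (vertical axes from 0) of Klf4 and of Vim, Adgrl4 and N4bp3, the 3 genes nearest to it over 13 libraries, in control, day 1 MN and day 5 MN mice (horizontal axis). Points are libraries, wide lines are means and bars are SD. All 4 genes have their highest mean at day 5 and their lowest in control.

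Klf2 is the factor that laminar flow induces in endothelium, where it maintains an anticoagulant and anti-inflammatory state. Control libraries held 334, 383, 336, 260 and 334 TPM. The day 1 libraries held 266, 426, 449 and 331 TPM and the day 5 libraries 387, 321, 336 and 315 TPM. Of the day 1 values, 1 lay near the lowest control, 1 inside the control range and 2 above every control. The log2 difference was 0.18 at day 1 (interval -0.13 to 0.50, adjusted p 0.634) and 0.08 at day 5 (interval -0.23 to 0.40, adjusted p 0.816), so a change by up to 1.42-fold at day 1 would be compatible with these libraries. Klf2 thus had no called change where Klf4 had one, but the difference between the 2 genes was not tested.

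The genes around Klf2 and Klf4 were read from lists. Of 7 genes of the MEK5-ERK5-MEF2 route that induces Klf2 and Klf4, 0 were called by limma in any comparison, 1 had an unadjusted p under 0.05 in each, and their median log2 difference was -0.03 at day 1 and 0.03 at day 5, beside 0.00 for all genes. Mef2a, with 122 TPM in control, was the most abundant, and its difference at day 5 was 0.09 (adjusted p 0.438). Of 8 genes that Klf2 or Klf4 are known to induce or repress in endothelium, 7 were tested and 0 were called. At an unadjusted p under 0.05 the counts were 0 at day 1 and 2 at day 5. Of the 7, 5 were higher than control at day 1 and 6 at day 5. Their median log2 difference was 0.14 at day 1 and 0.30 at day 5. Since the list mixes induced with repressed genes, these counts and medians have no single direction. Nos3, the endothelial nitric oxide synthase, averaged 47.0 TPM in control and 57.3 TPM at day 5, a difference of 0.32 with an adjusted p of 0.0403 that did not reach the fold threshold. Thbd, thrombomodulin, averaged 199 and 252 TPM (0.37, adjusted p 0.132), and Tek, the angiopoietin receptor, 306 and 340 TPM (0.19, adjusted p 0.284). S1pr1, Vcam1 and Sele were also higher at day 5 (0.30, 0.43 and 0.30) and Edn1 lower (-0.15), each with an adjusted p of at least 0.491.

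Klf6 is an injury-response factor of podocytes that protects mitochondrial function. Control libraries held 75.2, 81.7, 80.7, 61.0 and 78.5 TPM. Day 1 libraries held 51.1, 89.8, 85.1 and 68.3 TPM, and day 5 libraries 98.2, 72.2, 68.3 and 68.7 TPM. The single high day 5 library was the first, and both MN groups overlapped control. The log2 difference was -0.02 at day 1 (interval -0.38 to 0.35) and 0.05 at day 5 (interval -0.31 to 0.41), with adjusted p values of 0.982 and 0.908. Both values changed sign under some settings.

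Klf15 promotes podocyte differentiation and is induced by glucocorticoids there. Control libraries held 13.9, 8.54, 23.0, 9.21 and 22.9 TPM. Day 1 libraries held 9.77, 19.9, 13.4 and 12.8 TPM and day 5 libraries 18.0, 10.5, 7.52 and 8.07 TPM. The highest control was 2.70 times the lowest, and in the day 5 group the first library was 2.40 times the lowest. At day 5 the difference of -0.40 had an interval of -1.16 to 0.35 (adjusted p 0.587), which includes a fall to 0.449 of the control level as well as no change. At day 1 it was -0.03 (interval -0.78 to 0.72, adjusted p 0.986).

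Klf9 is a repressor that glucocorticoids and thyroid hormone induce and whose level follows the clock in many tissues. Control libraries held 118, 136, 182, 92.2 and 166 TPM. Day 1 libraries held 78.4, 179, 134 and 85.2 TPM and day 5 libraries 152, 109, 107 and 120 TPM. The day 1 group contained a pair of libraries below every control and 1 close to the highest control. The difference was -0.21 at day 1 (interval -0.75 to 0.33, adjusted p 0.768) and -0.12 at day 5 (interval -0.66 to 0.42, adjusted p 0.851).

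Klf13, a close relative of Klf9 that acts in lymphocytes and heart, measured 72.8, 71.7, 88.6, 63.9 and 86.0 TPM in control. It measured 65.3, 80.7, 81.0 and 55.3 TPM at day 1 and 88.1, 75.9, 79.0 and 87.8 TPM at day 5. All day 5 values lay inside the control range. The log2 difference was -0.08 at day 1 (adjusted p 0.847) and 0.15 at day 5 (adjusted p 0.574).

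Klf3, a repressor that recruits the corepressor Ctbp and limits fat and blood cell genes, measured 94.4, 119, 85.0, 96.2 and 91.5 TPM in control. It measured 112, 103, 129 and 99.8 TPM at day 1 and 103.7, 90.2, 116 and 106 TPM at day 5. At day 1 Klf3 had the second smallest p of the 9 genes, with a difference of 0.24 (interval 0.04 to 0.44, unadjusted p 0.0245), but its adjusted p over all genes was 0.338. At day 5 the difference was 0.14 (adjusted p 0.465).

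Klf7, best known for axon growth, measured 48.9, 63.0, 52.6, 57.6 and 52.7 TPM in control, 51.6, 53.4, 54.4 and 43.5 TPM at day 1, and 49.1, 51.6, 52.7 and 54.3 TPM at day 5. Its intervals were among the narrowest, -0.24 to 0.10 at day 1 and -0.21 to 0.12 at day 5, the last of which corresponds to 0.866 to 1.09 times the control level. Klf10, an early gene of the TGF-β response, measured 75.9, 90.8, 71.6, 66.6 and 65.1 TPM in control, 86.7, 69.2, 62.5 and 54.7 TPM at day 1, and 71.9, 67.5, 60.7 and 79.5 TPM at day 5. Its differences were -0.08 at day 1 (adjusted p 0.85) and -0.04 at day 5 (adjusted p 0.906). Of 10 other TGF-β target genes, 0 were called in any comparison (1 at day 1 and 0 at day 5 at an unadjusted p under 0.05), and their median difference was -0.02 at day 1 and 0.00 at day 5.

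Klf5, a factor of intestinal and collecting duct epithelium, did not reach 1 TPM in any library and was not tested with the others. It measured 0.177, 0.149, 0.338, 0.0936 and 0.126 TPM in control, 0.214, 0.153, 0.241 and 0.481 TPM at day 1, and 0.340, 0.304, 0.299 and 0.282 TPM at day 5. One control lay among the day 5 values and the rest were lower. In a fit of 23350 genes with no filter on low values its difference was 0.27 at day 5 (interval -0.0014 to 0.55, adjusted p 0.349) on a scale that understates changes of such low genes.

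Several of the other members spread widely between mice of the same group. The SD of log2 values inside the groups was 0.59 for Klf15, 0.43 for Klf9, 0.28 for Klf6 and 0.25 for Klf2. Among tested genes of like level these spreads stood at the 97.5th, 98.2nd, 94.8th and 91.3rd percentile. Klf10 and Klf13 had an SD of 0.22 and 0.21, at percentiles 89.2 and 88.3. For Klf4 and Klf7 the SD was 0.12 and 0.11, at percentiles 53.8 and 43.5.

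Some mice were high or low for several of these genes together. Each gene's log2 value was expressed as its deviation from the mean of its group, which removes the difference between groups. Control 4 lay below its group mean for Klf2 (-0.34), Klf6 (-0.31), Klf9 (-0.55), Klf13 (-0.26) and Klf15 (-0.61). Day 1 library 1 lay below for the same genes, at -0.43, -0.48, -0.51, -0.09 and -0.45. Day 1 library 2 lay above its group mean for them, at 0.27, 0.34, 0.69, 0.23 and 0.57, and day 5 library 1 at 0.25, 0.43, 0.39, 0.15 and 0.82. Klf3, Klf7 and Klf10 did not follow this order, as in day 1 library 1, where Klf10 was 0.37 above its mean. Control 2 parted the genes, with Klf2 (0.20) and Klf6 (0.09) above their means. Klf9 (-0.02), Klf13 (-0.12) and Klf15 (-0.73) lay below theirs in that library.

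**Figure D4:**
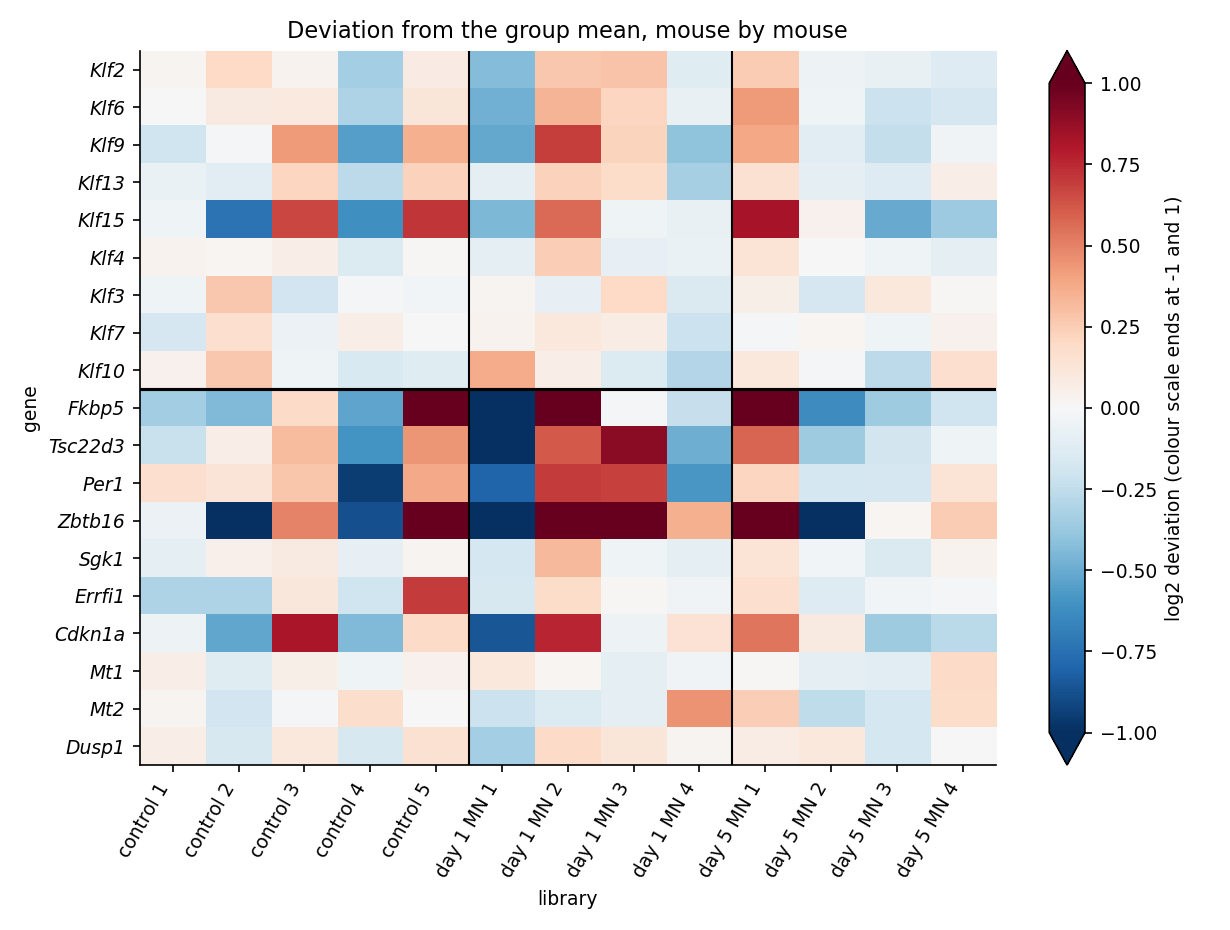
Deviation of each log2 value from the mean of its group (colour, red above and blue below) for 9 Kruppel-like factor genes and, under the horizontal line, 10 genes that glucocorticoids induce (rows), in 13 libraries (columns, with vertical lines between the groups). In day 1 MN 1 the rows of Klf2, Klf6 and Klf9 are blue (-0.43, -0.48 and -0.51) and in day 1 MN 2 red (0.27, 0.34 and 0.69).

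Over the 13 deviations, 29 of the 36 pairs of tested members had a positive correlation, and 9 pairs had a Pearson r of at least 0.7. These correlations are descriptions without a test. They share libraries, and the deviations within a group sum to 0. The closest pair was Klf2 and Klf6, with r = 0.946 and Spearman rho = 0.945, and r = 0.897 without the 2 libraries farthest from the median of Klf2. Of all other tested genes, 0.0140% had an r with Klf2 as high as that of Klf6. Klf9 and Klf13 had r = 0.900 (rho 0.852, 0.874 without 2 libraries), and 0.342% of genes were as close to Klf9. Klf6 and Klf9 had r = 0.871 (rho 0.896, 0.870 without 2 libraries), Klf9 and Klf15 r = 0.790 (rho 0.725, 0.742 without 2 libraries). Klf4, despite its smaller spread, followed Klf9 with r = 0.789 and rho = 0.747, but without 2 libraries r was 0.609. Klf2 and Klf15 were less close, with r = 0.534 (rho 0.555, 0.360 without 2 libraries). The lowest r, -0.453, belonged to Klf3 and Klf15.

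A list of 10 genes that glucocorticoids induce was set beside these deviations, since Klf9 and Klf15 are known members of that response. Of the 10 genes, 7 had an r of at least 0.7 with Klf9, which 3.49% of all tested genes reached. Tsc22d3, which encodes the anti-inflammatory protein GILZ, had r = 0.895 with Klf9 (rho 0.901, 0.895 without 2 libraries). Per1 had r = 0.889, Sgk1, a kinase of sodium transport, 0.867, and Fkbp5, a cochaperone of the glucocorticoid receptor, 0.862. With Klf6 the count was also 7 of 10 (4.40% of all genes), with Klf15 and Klf2 4 (2.81% and 3.92%) and with Klf4 and Klf13 3 (2.93% and 2.30%). With Klf3, Klf7 and Klf10 it was 0, and the median r of the list was -0.161, -0.0611 and -0.211. The closest of the list to Klf15 was Cdkn1a, a cell cycle inhibitor, with r = 0.887. The metallothionein genes Mt1 and Mt2 went their own way, with r = 0.0938 and -0.134 with Klf9.

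**Figure D5:**
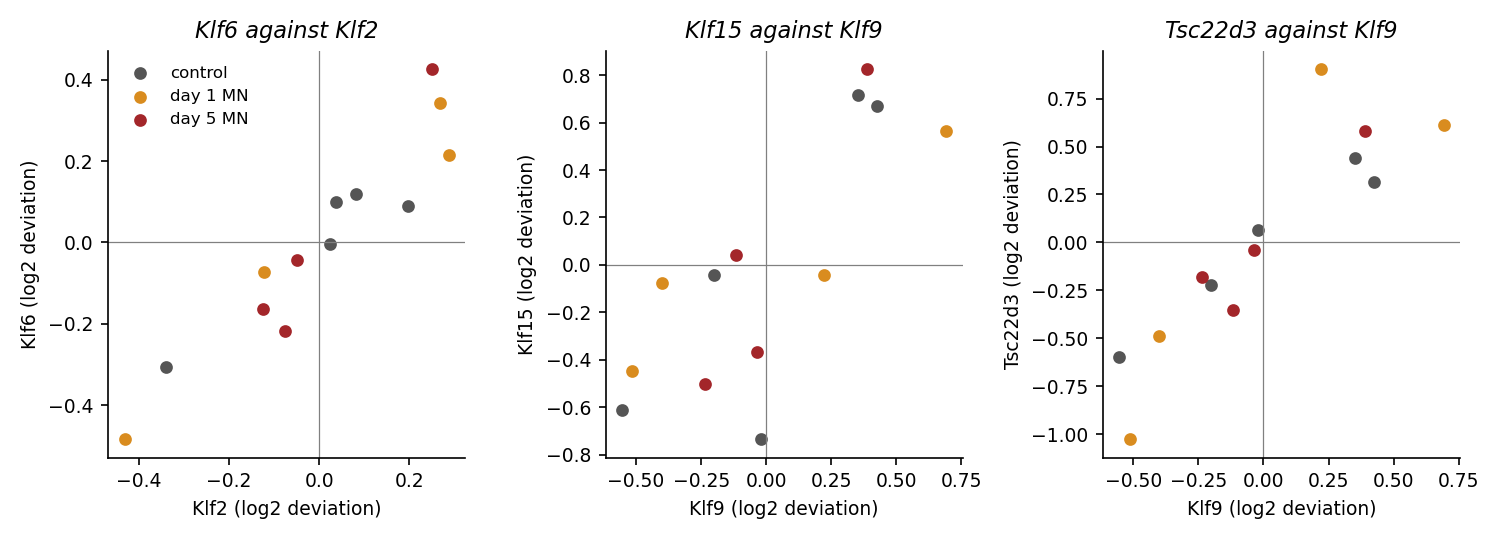
Deviation from the group mean on the log2 scale of Klf6 against Klf2, Klf15 against Klf9 and Tsc22d3 against Klf9, each point being 1 of 13 libraries coloured by group. Pearson r is 0.946, 0.790 and 0.895, and libraries of every group are found at both ends.

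The levels themselves show the range. Fkbp5 measured 46.8, 44.6, 68.1, 41.4 and 125 TPM in control, 17.4, 109, 40.9 and 34.5 TPM at day 1, and 101, 29.1, 37.6 and 40.8 TPM at day 5. Its high libraries (control 5, day 1 library 2 and day 5 library 1) were also high for Klf9 and Klf15, and its lowest, day 1 library 1, was the lowest of all for Klf9. Of the 10 genes of this list, 0 were called in any comparison (3 at day 1, 1 at day 5 and 3 between the days at an unadjusted p under 0.05, beside 12.6%, 20.1% and 15.5% of all genes), with median log2 differences of -0.02 at day 1 and -0.09 at day 5. Sgk1 lay above every control at day 5, with an adjusted p of 0.0186 for a difference of 0.41. Mt1 and Mt2 lay above every control at day 1 (0.34 and 0.58, adjusted p 0.102 and 0.178), and with Errfi1 they were lower in every day 5 than in every day 1 library.

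A list of clock genes was read in the same way. Of 17 clock genes, 1 had an r of at least 0.7 with Klf9, namely Per1, which is also in the list of glucocorticoid-induced genes. The median r of the 17 was -0.05 with Klf9 and -0.37 with Klf15. Dbp, a clock output gene, had r = -0.412 with Klf9 and -0.640 with Klf15. With Klf3 and Klf7, in contrast to their 0 of 10 glucocorticoid-induced genes, 4 of the 17 clock genes reached an r of 0.7 (1.292% and 1.299% of all genes), and the median r was 0.491 and 0.550. Klf3 went with Per3 (r = 0.815, rho 0.808, 0.744 without 2 libraries), and Klf7 with Cry1 (r = 0.852, rho 0.780, 0.706 without 2 libraries). Both went against Arntl, which encodes the clock activator BMAL1, with r = -0.860 for Klf3 (rho -0.813, -0.846 without 2 libraries) and -0.732 for Klf7. With Klf10 the count was 0 of 17 and the median r 0.365. Of the 17, 0 were called (0 at day 1 and 4 at day 5 at an unadjusted p under 0.05), and 15 at day 1 and 13 at day 5 were lower than control, with medians of -0.24 and -0.23. Cry2, a clock repressor, lay below every control at day 5 (-0.44, adjusted p 0.0649). The hour at which each mouse was killed is not given in the sources used here.

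The deviations were also set beside the mean deviation of the marker lists. For the endothelial markers r was 0.545 with Klf2, 0.70 with Klf4, 0.551 with Klf6 and 0.546 with Klf9. It was also positive with Klf7 (0.627) and Klf10 (0.551). For the podocyte markers it was most negative with Klf7 (-0.809), Klf3 (-0.765) and Klf10 (-0.576), whereas it was -0.230, -0.0950, -0.0625 and -0.0581 with Klf2, Klf4, Klf6 and Klf9, and 0.455 with Klf15. For the tubule markers it was -0.496 with Klf3, -0.438 with Klf2, -0.299 with Klf6, -0.0927 with Klf9 and 0.280 with Klf15. The part of cell composition in the shared variation was not tested.

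Of the 16 other Kruppel-like and Sp factor genes in the table, 10 were tested. Sp6 alone was called: it measured 6.31, 5.61, 5.68, 5.75 and 7.05 TPM in control and 2.93, 2.63, 3.39 and 3.59 TPM at day 5, a log2 difference of -0.83 (adjusted p 0.00185), and it also fell from day 1 to day 5 (-0.70, adjusted p 0.016). Sp2 lay above every control at both days, with 26.9 TPM in control, 31.5 TPM at day 1 and 35.4 TPM at day 5, and an adjusted p of 0.00544 at day 5 for a difference of 0.42. The most abundant of the others were Sp3, with 57.4 TPM, Sp1, with 53.4 TPM, and Klf11, with 41.0 TPM in control, and none of them was called. Of 12 corepressors, coactivators and ubiquitin ligases of the family, 0 were called (2 at day 1 and 3 at day 5 at an unadjusted p under 0.05, beside 12.6% and 20.1% of all genes), with medians of -0.04 at day 1 and -0.02 at day 5. Ctbp1, the partner of Klf3, averaged 197 TPM in control and 206 TPM at day 5. Kat2b, an acetyltransferase, lay below every control at day 5 in deposited TPM but not in scaled values (-0.23, adjusted p 0.0664).

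Kruppel-like factors are often induced together with immediate early genes, whose list was read for that reason. The study had already reported Egr1, Egr3, Maff and Fosb, with Klf4, among genes changed at both days in these mice. The counts of this list are therefore a description and not independent of that report. Of 20 tested genes, 3 were called higher at day 1 and 4 at day 5, and none lower, beside 0.0908% and 3.21% of all genes called. Their median differences were 0.26 and 0.20. Maff, a small Maf factor, measured 5.59 to 7.86 TPM in control, 14.2 to 18.9 TPM at day 1 and 10.4 to 19.0 TPM at day 5, and was called at both days (log2 differences 1.40 and 1.03). Egr1 was also called at both days (0.94 and 0.65), Fosb at day 1 (1.36) and Junb (0.51) and Egr3 (1.28) at day 5. The rest were not called, among them the abundant Jund (0.22 at day 1, adjusted p 0.285), Dusp1 (0.18, adjusted p 0.522) and Jun (-0.12, adjusted p 0.713). Ier2 and Ier5 lay above every control at day 5 and Zfp36 below, with differences of 0.38, 0.26 and -0.12. Zfp36, however, overlapped control in scaled values (adjusted p 0.521). Ier2 and Egr3 also lay above every control at day 1 (0.35 and 0.80, adjusted p 0.178 and 0.330 by limma). In deposited TPM, 5 of the 20 genes did so at day 1, and 6 lay above and 1 below at day 5. Among all genes 4.22% and 10.8% did not overlap.

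Of the 8 podocyte genes, which serve both as markers and as genes that Klf6 and Klf15 are known to support, 0 were called at day 1 (3 at an unadjusted p under 0.05) and 1 at day 5. Cdkn1c, a cell cycle inhibitor of mature podocytes, rose from 1245 TPM in control to 1997 TPM (0.72, adjusted p 7.08e-04). Synpo, the actin-bundling protein synaptopodin, averaged 1451 TPM in control, 1180 TPM at day 1 and 1034 TPM at day 5, with deposited values below every control at both days (at day 5 alone in scaled values) and a difference of -0.46 at day 5 (adjusted p 0.00197) that did not reach the fold threshold. The median of the 8 genes was -0.10 at day 1 and -0.09 at day 5.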

How the data were processed

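The authors trimmed the paired-end reads with Trimmomatic 0.39, checked them with FastQC 0.11.9 and quantified transcripts with kallisto 0.46.2 on GRCm39, per the labels and methods. The deposited values are TPM per gene symbol, and how transcripts were summed is not given in the sources used here. TPM hold no read counts, so limma was used in place of the count test of the study's methods. Each library's TPM were divided by a median-of-ratios factor (0.955 to 1.04), and log2(value + 0.5) was fitted for 14322 genes with at least 1 TPM in at least 4 libraries, with a mean-variance trend (limma 3.58.1, R 4.3.3). Fold changes are on this scale, which understates changes of low genes. All 13 libraries entered 1 fit, p-values were Benjamini-Hochberg adjusted over all tested genes, and a gene was called at an adjusted p under 0.05 and a log2 difference beyond 0.5. Library names carry numbers that run across the groups, but the labels do not tie them to litter or batch, and their order was not examined. Libraries with the same replicate number did not deviate together (r between -0.056 and 0.091). TPM totals per library were 989774 to 996064. Shared words of 31 bases, the default word length of kallisto, were counted in GENCODE vM39 transcripts. The named genes were all 10 members and, of the other lists, genes called, genes whose groups did not overlap, up to 3 of highest mean TPM, and the 3 genes nearest to a called member. Other genes were named after their values were seen. The members and lists were chosen with earlier results of these data known. Alternatives covered the pseudocount, scaling, filter, trend, groups in the fit, replicate block, library weights, a tubule marker covariate and leaving out each library.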

Additional observations from a re-analysis of the deposited data

Results flagged for a closer look

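In groups of 4 or 5 libraries, the highest or lowest value was marked where its gap to the nearest other, divided by the range of the group, was above Dixon's 95% critical value, which chance gives in about 1 of 20 groups. Of 30 groups checked over the 10 genes, 2 were marked. Klf4 in day 1 library 2 measured 185.1 TPM, with the next library at 153.4 TPM, a gap of 0.865 of the range. Klf6 in day 5 library 1 measured 98.21 TPM, with the next at 72.17 TPM, a gap of 0.871 of the range. Both libraries were also the highest of their group for Klf9 and Klf15.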

How the results depend on the processing

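Klf4 was called at day 5 under every alternative that was run. At day 1, 0 of the 9 tested members were called with the settings used for the results above. This became 1 gene, Klf4, with the replicate block, with array quality weights and with the adjusted p alone, and between 0 and 1 when leaving out each library in turn, 1 without control 5 and without day 1 library 3. With the replicate block the number of all genes called at day 1 rose from 13 to 149, and at day 5 it was 348 in place of 460, though same-numbered libraries share only a number. Without control 5 it was 218 at day 1, and with the tubule covariate 0 (1213 at an unadjusted p under 0.05). Of 27 log2 differences of the 9 tested genes, 12 changed sign under at least 1 setting, and the largest of these 12 was 0.0903 in size. At day 1, Klf6 was 0.0143 with the replicate block, 0.0231 with array weights and 0.137 with the tubule covariate, Klf7 9.78e-04 and Klf10 0.0739 with that covariate, and Klf15 0.153 with the replicate block and 0.0274 with array weights. From day 1 to day 5 the tubule covariate gave -0.0998 for Klf6, -0.0504 for Klf7 and -0.133 for Klf10. Leaving out each library gave ranges of -0.129 to 0.146 (Klf6), -0.111 to 0.00261 (Klf7), -0.202 to 0.019 (Klf10), -0.156 to 0.0319 (Klf13) and -0.215 to 0.154 (Klf15) at day 1. At day 5 they were -8.85e-05 to 0.133 (Klf2), -0.0886 to 0.127 (Klf6) and -0.098 to 0.0451 (Klf10). Between the days they were -0.0936 to 0.182 (Klf6), -0.0453 to 0.0601 (Klf7), -0.082 to 0.32 (Klf9) and -0.0624 to 0.158 (Klf10). None of the reversed values had an adjusted p under 0.05, and the causes were not tested. Depth is unknown.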
